A study of Mus musculus with 11 samples.

Results

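The 6 genes S100a8, Il1r2, Csf3r, Trem1, Mmp9 and Cxcr2, which encode an alarmin, 4 receptors and a protease of mature neutrophils, were described in lungs of tumor-bearing mice. They were chosen by name, with earlier results of these data known. All 6 were among the 770 genes of the table and among the 657 genes that averaged at least 20 normalized counts. Female BALB/c mice aged 8 weeks had received 4T1-luc2 cells, mouse mammary carcinoma cells that carry luciferase and seed the lung, in the mammary fat pad, and the tumors were resected on day 13. Mice were treated intraperitoneally with the agonist antibody αChemR23, directed against the resolvin E1 and chemerin receptor ChemR23 (6 mice, numbers 9, 10, 13, 14, 15 and 16), or with the isotype control antibody hIgG1 of clone MOTA (5 mice, numbers 3, 4, 6, 7 and 8). Dosing was 1 mg/kg for both antibodies, with 3 injections weekly over 3 weeks (days 7 to 28). Lungs were collected when a mouse reached its critical endpoint and were digested to a cell suspension, and 50 ng of RNA was counted on the nCounter platform, in which color-coded probes bind RNA molecules without amplification. No source used here gives the collection day of a mouse, so that this day and the metastatic load cannot be told apart from the treatment. Each mouse gave 1 lung sample, so the spread between samples includes that between animals. Group sizes follow the sample labels, which differ from the design text of the series.

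Neutrophils are released from the bone marrow under the growth factor G-CSF, which acts through the receptor encoded by Csf3r, and enter tissue along gradients of chemokines read by Cxcr2. S100a8 forms with S100a9 the alarmin calprotectin, which fills the neutrophil cytosol and signals through TLR4 when released. Trem1 is a surface receptor that amplifies myeloid inflammatory signalling, Il1r2 is a decoy receptor that binds IL-1 without signalling, and Mmp9 is a gelatinase stored in granules. 4T1 tumors secrete G-CSF and are known for a strong rise of neutrophils in blood, spleen and lung of their hosts. The RNA came from all cells of the digested lung, so that fewer neutrophils and less RNA per neutrophil cannot be told apart.

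To show the regions at which transcription of these co-varying genes begins, the promoters of S100a8 (chr3:90668821-90669120), Csf3r (chr4:126024409-126024708), Cxcr2 (chr1:74153744-74154043) and Trem1 (chr17:48232489-48232788) are printed from RefSeq (GRCm38.p6, plus strand), each from 250 bases before to 50 after the gene's start. Capitals mark GAGGAA, or TTCCTC where it lies on the opposite strand, a core sequence bound by the myeloid transcription factor PU.1.
S100a8: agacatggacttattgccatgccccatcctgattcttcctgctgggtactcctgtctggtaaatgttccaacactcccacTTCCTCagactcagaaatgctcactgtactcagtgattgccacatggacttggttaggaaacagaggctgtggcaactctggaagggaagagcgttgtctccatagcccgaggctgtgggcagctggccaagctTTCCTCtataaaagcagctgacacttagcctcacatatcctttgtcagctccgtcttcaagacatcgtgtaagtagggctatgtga
Csf3r: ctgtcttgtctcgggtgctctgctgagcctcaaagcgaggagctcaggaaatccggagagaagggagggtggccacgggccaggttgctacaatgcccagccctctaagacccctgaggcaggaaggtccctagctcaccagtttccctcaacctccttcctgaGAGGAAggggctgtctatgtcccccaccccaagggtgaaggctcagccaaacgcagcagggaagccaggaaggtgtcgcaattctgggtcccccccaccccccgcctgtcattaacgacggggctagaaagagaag
Cxcr2: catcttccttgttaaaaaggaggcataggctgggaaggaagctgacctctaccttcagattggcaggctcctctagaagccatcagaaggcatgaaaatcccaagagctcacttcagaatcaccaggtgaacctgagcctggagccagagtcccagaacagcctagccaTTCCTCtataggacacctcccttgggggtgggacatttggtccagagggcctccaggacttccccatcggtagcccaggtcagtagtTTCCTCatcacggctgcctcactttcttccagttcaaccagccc
Trem1: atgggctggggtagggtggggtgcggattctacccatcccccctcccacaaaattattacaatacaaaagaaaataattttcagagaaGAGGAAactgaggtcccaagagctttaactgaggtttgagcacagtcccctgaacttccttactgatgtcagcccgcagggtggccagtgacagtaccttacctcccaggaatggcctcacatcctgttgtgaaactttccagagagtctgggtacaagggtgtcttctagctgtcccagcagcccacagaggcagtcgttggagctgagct
These 4 were the promoters with GAGGAA among the 5 of the 6 genes that the promoter table listed, the other being Il1r2. Of all 32851 promoters of the table, 28.3% held it. The looser sequence TTNNGNAA, read by C/EBP factors of granulocytes and also searched on both strands, was found in those of S100a8 and Trem1, 2 of 5, and in 40.7% of all promoters. Both motifs were chosen with the co-variation of the genes known, and a match describes the letters and not a bound site.

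Totals were 526091 to 715706 normalized counts in αChemR23 lungs and 580102 to 667587 in hIgG1 lungs, and all lungs had an estimated 590886 to 680732 counts before normalization. The mean of the 20 housekeeping genes was 9.01 log2 normalized counts in every lung, so that all levels are relative to these genes. The 6 genes together took 6.85 to 22.3% of the total in αChemR23 lungs (median 13.9%) and 12.7 to 18.9% in hIgG1 lungs (median 13.3%), nearly all of it S100a8. Endothelial markers, which define lung vessels, summed to 17995 to 22029 normalized counts in αChemR23 lungs and 17887 to 19926 in hIgG1 lungs (6 of 7 listed markers measured).

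S100a8, the alarmin, had 16.05, 16.91, 16.53, 15.02, 15.67 and 17.22 log2 normalized counts in the αChemR23 lungs of mice 9, 10, 13, 14, 15 and 16. In the hIgG1 lungs of mice 3, 4, 6, 7 and 8 it had 16.69, 16.17, 16.14, 16.87 and 16.07. The groups overlapped, with 3 αChemR23 lungs (mice 9, 14 and 15) below every hIgG1 lung and 2 (mice 10 and 16) above. S100a8 thus spanned 4.57-fold among αChemR23 lungs and 1.74-fold among hIgG1 lungs. Its mean was 16.23 ± 0.82 in αChemR23 lungs and 16.39 ± 0.37 in hIgG1 lungs (SD, n = 6 and 5). The log2 difference of -0.15 (95% interval -0.89 to 0.58) was smaller than either SD.

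Cxcr2, the receptor for chemokines that draw neutrophils into tissue, had 10.82, 11.36, 11.29, 10.20, 10.49 and 11.67 log2 normalized counts in αChemR23 lungs, in the same order of mice. It had 11.34, 11.07, 10.78, 11.42 and 11.08 in hIgG1 lungs. Only mice 14 and 15 of the αChemR23 group lay below every hIgG1 lung, and mouse 16 lay above. The range was 2.77-fold in αChemR23 lungs and 1.56-fold in hIgG1 lungs.

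Csf3r, the G-CSF receptor, was measured at 10.28, 10.74, 10.71, 9.94, 10.001 and 11.23 log2 normalized counts in αChemR23 lungs, and at 10.98, 10.62, 10.59, 11.07 and 10.62 in hIgG1 lungs. Mice 9, 14 and 15 lay below all hIgG1 lungs and mouse 16 above them. Csf3r had the smallest range of the 6 genes, 2.43-fold in αChemR23 lungs and 1.39-fold in hIgG1 lungs.

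Trem1, the amplifying receptor, was at 7.11, 8.08, 7.91, 7.00, 7.35 and 8.52 log2 normalized counts in αChemR23 lungs, and at 8.06, 7.80, 7.73, 8.29 and 7.86 in hIgG1 lungs. The same 3 αChemR23 mice were below the hIgG1 range, and mouse 16 was above it. Among αChemR23 lungs Trem1 spanned 2.86-fold, and among hIgG1 lungs 1.48-fold.

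Il1r2, the IL-1 decoy receptor, had 6.44, 7.93, 8.03, 6.17, 6.80 and 8.11 log2 normalized counts in αChemR23 lungs. It had 7.95, 8.26, 7.55, 8.15 and 7.46 in hIgG1 lungs. Mice 9, 14 and 15 were again lowest, and here no αChemR23 lung lay above the hIgG1 range. A gap of 1.13 log2 separated these 3 lungs from the other αChemR23 lungs. Il1r2 had the largest mean difference of the 6 genes, at 7.25 ± 0.88 in αChemR23 lungs and 7.87 ± 0.36 in hIgG1 lungs (SD, n = 6 and 5), a log2 difference of -0.63 with an interval from -1.41 to 0.16. Counting error was at most 0.16 log2 per lung for Il1r2 and at most 0.12 for Trem1, below the spread between lungs.

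Mmp9, the granule gelatinase, had 9.21, 10.09, 9.93, 8.57, 8.97 and 10.42 log2 normalized counts in αChemR23 lungs, and 9.89, 9.85, 9.50, 9.87 and 9.99 in hIgG1 lungs. Mice 9, 14 and 15 lay below and mice 10 and 16 above all hIgG1 lungs, so that 1 αChemR23 lung (mouse 13) fell inside their range. The range was 3.62-fold in αChemR23 lungs and 1.40-fold in hIgG1 lungs.

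**Figure D1:**
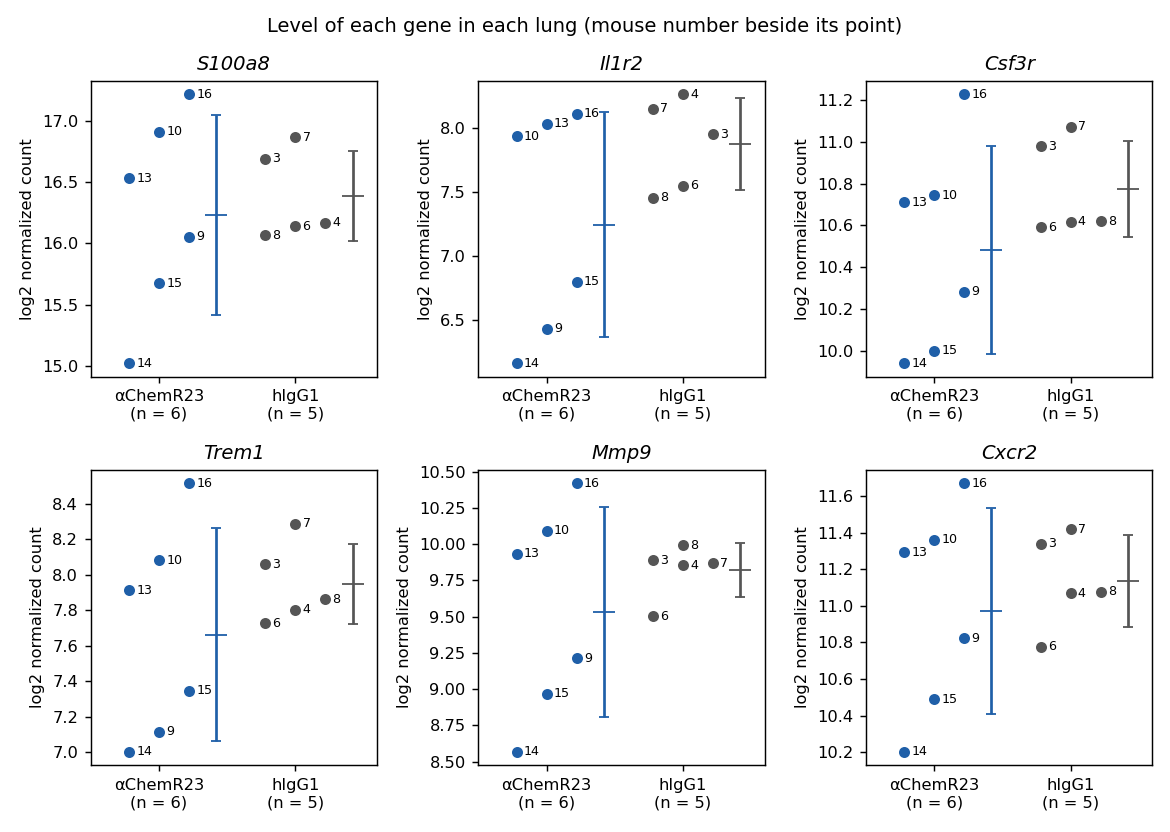
Log2 normalized counts (vertical axis, own scale for each gene) of the 6 genes in αChemR23 lungs (blue, n = 6) and hIgG1 lungs (gray, n = 5). Each point is 1 lung with its mouse number, and lines give the mean ± SD. αChemR23 mouse 14 was lowest for every gene, and αChemR23 points lay on both sides of the hIgG1 range for 5 genes, Il1r2 being the exception.

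The treatment comparison asked whether αChemR23 changed these genes. All 6 had a lower mean in αChemR23 lungs, as did 42.6% of all tested genes, with ratios to hIgG1 of 0.648 for Il1r2 to 0.900 for S100a8. In limma on 657 genes, 0 of 6 passed an adjusted p of 0.05 (0.0% of all tested genes) and 0 of 6 an unadjusted p of 0.05 (9.89% of all tested genes, 2.74% with a lower and 7.15% with a higher mean). Adjusted p values from limma were 0.495 for Il1r2, 0.603 for Csf3r, 0.705 for Trem1, 0.742 for Mmp9, 0.855 for Cxcr2 and 0.923 for S100a8. The exact permutation test over all 462 splits of the lungs gave a p of 0.167 for Il1r2, and larger values for the others. The log2 difference was -0.29 for Csf3r (interval -0.74 to 0.16), -0.28 for Trem1 (-0.82 to 0.25), -0.29 for Mmp9 (-0.91 to 0.33) and -0.16 for Cxcr2 (-0.67 to 0.35), so that decreases of this order and small increases are both within the error. These 6 values are not independent, since the genes varied together. For none of the 6 genes were the groups free of overlap, against 1.07% of all tested genes. Leaving out αChemR23 mouse 16 brought 3 genes under an unadjusted p of 0.05 in limma (Csf3r 0.0237, Il1r2 0.0409 and Trem1 0.0479), with adjusted p values of 0.339 to 0.397, and leaving out αChemR23 mouse 14 turned the S100a8 difference to 0.09.

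The genes differed between lungs more than most. Their SD over the 11 lungs was 0.74 log2 for Il1r2, 0.63 for S100a8, 0.55 for Mmp9, 0.47 for Trem1, 0.44 for Cxcr2 and 0.41 for Csf3r, where the median of all tested genes was 0.22. Il1r2 ranked 9 and S100a8 16 of 657 genes by this SD, and Csf3r, the lowest of the 6, ranked 93. Within groups, every one of the 6 had a larger SD in αChemR23 lungs, by 2.17 times for Csf3r to 3.88 times for Mmp9, where 59.8% of all tested genes had a larger SD in αChemR23 lungs and the median ratio was 1.11. An exact permutation test of the mean absolute deviation from the group mean, over all splits, gave p = 0.00433 for Il1r2 (0.85 in αChemR23 lungs and 0.33 in hIgG1 lungs) and p = 0.00649 for Mmp9 (0.68 and 0.14 in the same order of groups). The same exact test gave p = 0.0195 for Trem1, 0.0541 for Cxcr2, 0.0779 for Csf3r and 0.108 for S100a8. So 3 of 6 were wider in αChemR23 lungs at an unadjusted p of 0.05, as were 5.94% of all tested genes (9.74% differed in either direction), and 0 of 6 passed after adjustment over all genes (adjusted p of 0.299 for Il1r2 and Mmp9, 0.444 for Trem1). The 6 results are not independent, since the genes varied together over the same lungs. The 3 of 6 are thus not separate results. Because the 6 genes were chosen with earlier results of these data known, the p values and shares of this paragraph are descriptions. In simulated data without a difference the spread test gave more p values under the threshold than its nominal share. Its unadjusted p values are thus somewhat too small. The count of 3 varied between 2 and 4 when single lungs were left out, and was 5 when all lungs were scaled to equal medians.

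**Figure D2:**
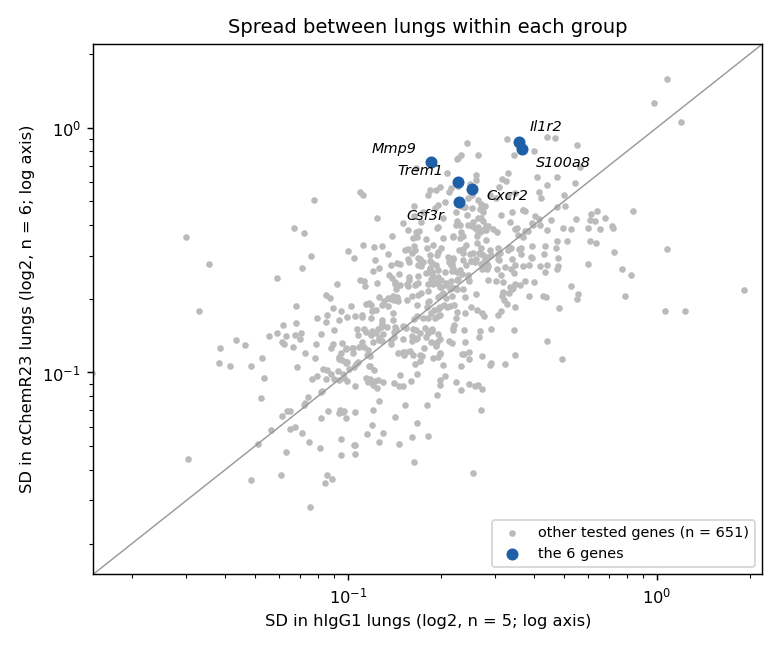
SD between αChemR23 lungs (vertical axis, n = 6) against SD between hIgG1 lungs (horizontal axis, n = 5) in log2 units on log axes, for the 6 genes (blue) and the other 651 tested genes (gray), with the line of equal SD. All 6 genes lay above the line, at ratios of 2.17 to 3.88.

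The same lungs were high or low for the whole set. αChemR23 mouse 14 was lowest for all 6 genes, and αChemR23 mouse 16 was highest for 5, the exception being Il1r2, which was highest in hIgG1 mouse 4. In αChemR23 mice 9, 14 and 15 all 6 genes were below their mean over the 11 lungs, and in αChemR23 mice 10, 13 and 16 and hIgG1 mice 3 and 7 all 6 were above it. The remaining hIgG1 lungs were mixed. In hIgG1 mouse 4, Il1r2 was 0.73 log2 above its mean while S100a8 was 0.14 below (a deviation of -0.14), and in hIgG1 mouse 8 Mmp9 was 0.33 above while S100a8 deviated by -0.24.

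**Figure D3:**
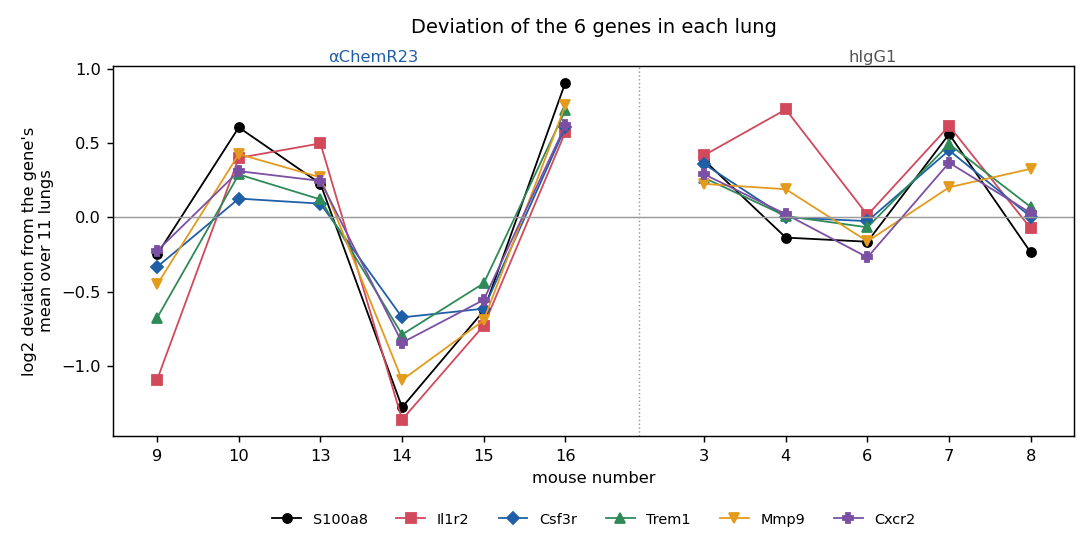
Log2 deviation of each of the 6 genes from its own mean over 11 lungs (vertical axis) in each lung (horizontal axis, mouse number, αChemR23 left of the dotted line and hIgG1 right of it). Lines join values of a gene to guide the eye. The genes moved together in αChemR23 lungs, from about -1.36 for Il1r2 in mouse 14 to 0.91 for S100a8 in mouse 16, and lay closer to 0 in hIgG1 lungs.

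Over the 11 lungs, all 15 pairs of the genes were positively correlated, with Pearson r between 0.822 (S100a8 and Il1r2) and 0.970 (S100a8 and Cxcr2) and a median of 0.913. The permutation p ranged between 1e-05, the smallest that 100000 resamples can give, and 0.00112, and after Benjamini-Hochberg adjustment over the 15 pairs it was at most 0.00112. All 15 pairs reached an r of 0.8, as did 1.6% of the 215496 pairs of tested genes, whose median r was 0.08. Because the 6 genes were chosen with earlier results of these data known, the p values and shares of this paragraph are descriptions of them. Spearman rho was 0.982 for Csf3r with Trem1 and with Cxcr2, and lowest for Il1r2 with Mmp9 (0.545, permutation p = 0.0892), the 1 pair of 15 that did not pass by rank. As deviations from the group means, all 15 pairs had an r of 0.843 to 0.971, where 2.08% of all pairs reached 0.8. Within the 6 αChemR23 lungs alone r was 0.898 to 0.995 (exact permutation over 720 orders, adjusted p of 0.00521 to 0.0389). Correlations were given only over 6 or more lungs, so that none is given within the 5 hIgG1 lungs. Among those, mouse 8 had the highest Mmp9 (9.99) and the lowest S100a8 (16.07) and Il1r2 (7.46), and mouse 4 had the highest Il1r2 (8.26) with S100a8 at 16.17. Whether the co-variation differed between the groups was not tested.

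The median r was lower when lungs at the ends of the range were left out. Without the 2 lungs farthest from the median of the first gene of each pair, r was 0.697 to 0.960 (median 0.824). An alternative added after the values were seen left out αChemR23 mice 9, 14 and 15, the lungs with Il1r2 below every hIgG1 lung. Over the remaining 8 lungs r was 0.356 (Il1r2 and Mmp9) to 0.952 (median 0.767), and 8 of 15 pairs passed the permutation test after adjustment. Of the pairs that did not, 5 were those of Il1r2 and the other 2 joined Mmp9 with S100a8 and with Csf3r. Because the lungs were picked by low Il1r2, the range of Il1r2 was narrowed. Lower r for its pairs thus follows in part from the choice. Under quantile normalization the 5 pairs of S100a8 did not pass (r of 0.518 to 0.683). Each gene's r with the mean of the other 5 over all lungs was 0.972 for Cxcr2, 0.962 for Trem1, 0.959 for Csf3r, 0.952 for Mmp9, 0.941 for S100a8 and 0.892 for Il1r2.

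**Figure D4:**
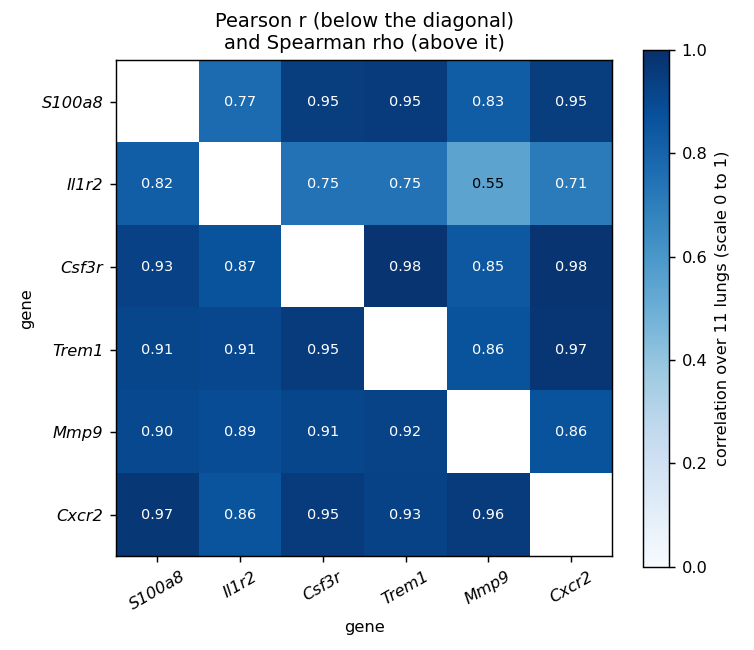
Correlation of the 15 pairs of the 6 genes over 11 lungs, with Pearson r below the diagonal and Spearman rho above it (color scale 0 to 1). The lowest cells are those of Il1r2, with a rho of 0.55 with Mmp9.

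Among all tested genes, those most like each of the 6 over the 11 lungs were found by Pearson r, as a description. S100a8 and Cxcr2 were both closest to Csf3, which encodes G-CSF, the ligand of Csf3r (r = 0.984 and 0.985). Csf3 had 5.37, 6.14, 5.91, 4.60, 5.15 and 6.30 log2 normalized counts in αChemR23 lungs, and 6.10, 5.58, 5.41, 6.15 and 5.65 in hIgG1 lungs, with αChemR23 mouse 14 lowest and mouse 16 highest as for S100a8. Csf3r was closest to Csf2rb, the shared receptor chain of GM-CSF and IL-3 (0.979), Trem1 to Slc11a1 (0.957), a metal transporter of phagosomes, Mmp9 to C5ar1 (0.984), the receptor of complement C5a, and Il1r2 to Arg2 (0.911), an arginase. For S100a8, Csf3r, Trem1 and Mmp9, 1 of the 5 closest genes was another of the 6, for Il1r2 it was 2 (Trem1 and Mmp9) and for Cxcr2 0. With the mean of the 6 standardized genes, r was highest for C5ar1 (0.980), Ccr1 (0.979), Arg2 (0.977), Ncf4 (0.976) and Csf3 (0.972), and 68 of the other 651 genes (10.4%) reached 0.8. The lowest value was -0.79 for Cd81, a tetraspanin, followed by -0.76 for Ccl5, a chemokine of T and NK cells. Next came -0.76 for Hspb2, a small heat shock protein, -0.73 for Epcam, an epithelial adhesion molecule, and -0.71 for Ncr1, an NK cell receptor. These 5 genes spanned 1.16-fold (Cd81) to 1.89-fold (Ncr1) over the 11 lungs.

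Pathway partners were read from lists, with r again taken with the mean of the 6 standardized genes. Unless a count is given, 0 members of a list passed an unadjusted p of 0.05 in limma. The ligand side followed the 6 genes unevenly. Csf3 was the 1 of 5 tested genes of the G-CSF list at or above 0.8, followed by Socs3 (0.773), a feedback inhibitor, and Stat3 (0.728), while the kinase gene Jak2 had an r of -0.0017. Of the chemokines that bind Cxcr2, 3 of 5 measured were above the minimum level, and r was 0.684 for Ppbp, a platelet chemokine, 0.254 for Cxcl5 and -0.25 for Cxcl1. Cxcl5 and Cxcl1 were at low levels, where counting error is larger. Their means were 4.90 and 4.96 log2 normalized counts in αChemR23 lungs and 5.09 for both in hIgG1 lungs. Csf3 was also at low levels, with means of 5.58 in αChemR23 lungs and 5.78 in hIgG1 lungs. Of the IL-1 system around Il1r2, the coreceptor gene Il1rap (0.864) and the cytokine gene Il1b (0.850) lay above 0.8, Il1rn, the receptor antagonist, had 0.747, and the signalling receptor Il1r1 had -0.31. Of the partners of S100a8, the adaptor Myd88 (0.846) and Cd14 (0.782) were closer than its receptor Tlr4 (0.400). Of the Trem1 partners, the kinase Syk had 0.947, and Card9, an adaptor, 0.815. The related receptor Trem2 had 0.00044, also at low levels (means of 5.15 in αChemR23 lungs and 4.85 in hIgG1 lungs). Card9 was the 1 of 3 tested genes of that list under an unadjusted p of 0.05, at 4.47 ± 0.39 in αChemR23 lungs and 4.96 ± 0.26 in hIgG1 lungs (SD, n = 6 and 5, adjusted p = 0.483 in limma), close to the lowest values of the table. Of the 7 listed inhibitors of Mmp9 and related proteases, 0 were measured.

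Other neutrophil genes varied with the 6. Of 12 tested receptors, integrins and oxidase subunits (19 listed), 8 had an r of at least 0.8 (median 0.88), with Ccr1, the oxidase subunit Ncf4, the integrin Itgam (0.963) and the selectin ligand Selplg (0.959) highest, and 7 had a lower mean in αChemR23 lungs. Granule genes (6 of 9 listed were measured) were like the 6 genes to different degrees, a difference that was not tested. Those of the later granules, Ltf (0.887), Camp (0.874) and Lcn2 (0.812), reached 0.8, and those of the primary granules, which are transcribed in promyelocytes, did not (Ctsg 0.634, Mpo 0.609 and Elane 0.507). Between αChemR23 and hIgG1 lungs the log2 difference of these granule genes lay between -0.34 for Ltf and 0.20 for Mpo, within the spread between lungs.

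Markers of other cell types were set beside this pattern, and their part in it was not tested. The median r was -0.04 over 11 tested macrophage markers (13 listed), whose sum was 3369 to 3986 normalized counts in αChemR23 lungs and 2904 to 3768 in hIgG1 lungs (2 of 11 under an unadjusted p of 0.05, 1 in each direction). T cell markers (8 of 8 tested) had a median r of 0.17 and sums of 421 to 814 in αChemR23 lungs and 405 to 1219 in hIgG1 lungs. B cell markers had a median of -0.38 over 5 tested genes (7 listed) and sums of 314 to 677 in αChemR23 lungs and 262 to 378 in hIgG1 lungs, with 4 of 5 higher in αChemR23 lungs at an unadjusted p of 0.05. NK markers had a median r of -0.28 over 5 tested genes (6 listed, sums of 417 to 632 in αChemR23 lungs and 404 to 576 in hIgG1 lungs). For 4 tested mast cell and eosinophil markers (9 listed) the median r was 0.08 (673 to 908 in αChemR23 lungs and 675 to 765 in hIgG1 lungs, 1 higher at an unadjusted p of 0.05). These markers differed, since the eosinophil marker Prg2 had an r of 0.750, and Fcer1a, Ms4a2 and Kit had 0.227, -0.067 and -0.128. For the 6 endothelial markers the median r was 0.18 (1 higher), between -0.287 for Kdr and 0.674 for Vwf. The 4 epithelial and carcinoma markers (7 listed) summed to 5559 to 7016 in αChemR23 lungs and 4868 to 6031 in hIgG1 lungs. Their ranges over the 11 lungs were small, at 1.20-fold (Cdh1), 1.38-fold (Epcam), 1.56-fold (Muc1) and 2.14-fold (Spp1). Within these ranges they ran against the 6 genes (r of -0.73 to -0.51). The 2 platelet markers (4 listed) ran with them (0.675 and 0.762), at 233 to 449 in αChemR23 lungs and 320.5 to 444 in hIgG1 lungs. No gene stood at 0 in any lung, since the lowest value of a lung (8.85 to 16.2 normalized counts, shared by 33 to 97 genes) stands for whatever lies below it.

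**Figure D5:**
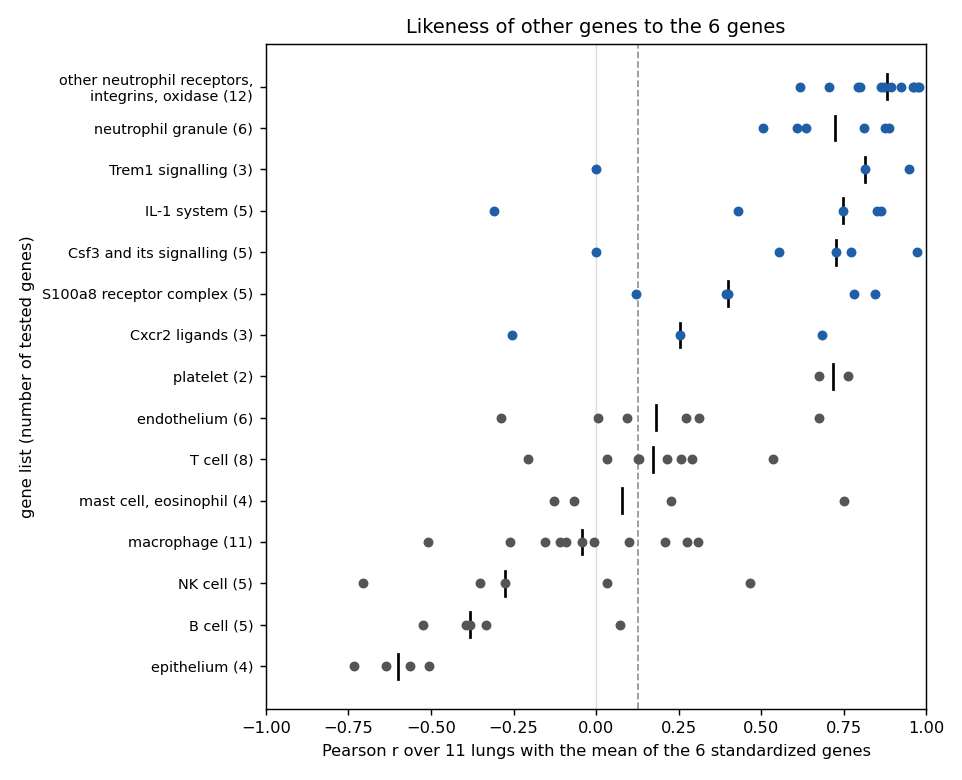
Pearson r over 11 lungs of each tested gene of a list (point) with the mean of the 6 standardized genes (horizontal axis), for lists of pathway and neutrophil genes (blue) and of markers of other cell types (gray), with the number of tested genes in parentheses. Short black lines are list medians and the dashed line is the median of the other tested genes (0.13). Neutrophil receptors lay highest and epithelial markers lowest.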

How the data were processed

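The authors counted lung RNA on the nCounter Sprint and normalized it in nSolver, and deposited log2 normalized counts per gene and lung. No source used here gives the nSolver settings, and the panel named in the methods holds another number of genes than the table. DESeq2 is named in the submitters' processing notes and was not run here, since the values are not raw counts. Low values were whole multiples of a step of 0.865 to 1.11 normalized counts per raw count in each lung (100% within 0.1 of a count, below 60 normalized counts and without the lowest value of each lung), which gave the estimated counts.

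The groups were compared with limma 3.58.1 in R 4.3.3 (lmFit and eBayes with trend) on the log2 values of genes averaging 20 or more normalized counts, adjusted by Benjamini-Hochberg over 657 genes at a threshold of 0.05, and single genes by exact two-sided permutation, whose smallest p is 0.00216. Pairs were tested two-sided with 100000 resamples. The spread was tested on mean absolute deviations, scaled for group size. The limma fit and the permutation tests of differences, spread and pairs were tried on simulated data. The 6 genes and the lists were chosen with earlier results of these data known. Named genes were the 6, up to 4 of each list by smallest p or highest r, the 5 closest to each of the 6, and the 5 highest and lowest in r with their mean, not all of which are printed. Sequences are those of RefSeq.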

Additional observations from a re-analysis of the deposited data

Results flagged for a closer look

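Mmp9 in hIgG1 mouse 6 lay apart from the rest of its group, at 9.50 log2 normalized counts against 9.85 to 9.99 in the other 4 hIgG1 lungs. It was the 1 lung set apart among the 12 groups of values of the 6 genes (Dixon's test), and chance sets apart a lung in about 1 in 20 groups. Mmp9 of the same lung was still above the values of αChemR23 mice 9, 14 and 15.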

How the results depend on the processing

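The count of the 6 genes under an unadjusted p of 0.05 was 0 with no filter, a minimum mean of 50, log2 of the normalized count plus 10, equal medians, quantile normalization, robust eBayes, array weights, eBayes without trend, voom on the recovered counts and the exact Mann-Whitney test, and 0 to 3 when each lung was left out, with 3 without αChemR23 mouse 16. The S100a8 difference ranged between -0.35 and 0.0908 (without αChemR23 mouse 14) when each lung was left out, and the other 5 genes kept a lower mean in αChemR23 lungs. Under quantile normalization 10 of 15 pairs passed, the pairs of S100a8 being lost (r of 0.518 to 0.683), and the SD of S100a8 over the lungs was 0.32 in place of 0.63; this setting by construction gives nearly 1 value to a gene that is highest in almost every lung. Without αChemR23 mice 9, 14 and 15, picked by their low Il1r2, 8 pairs passed (added after the values were seen). All 15 passed when each lung was left out, and the SD of S100a8 was then 0.48 to 0.66. The count of genes with a wider spread in αChemR23 lungs was 5 with equal medians, and 2 to 4 when each lung was left out; the cause was not tested. Over all tested genes, quantile normalization gave 26 higher and 32 lower means at an unadjusted p of 0.05, against 47 and 18 in the values as deposited. No paired analysis was possible because no mouse number occurs in both groups. With 11 lungs, a difference of the size measured for these genes lies within the spread between lungs, and the weakest values are limited by the lowest value of each lung.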
